A study of Mus musculus with 14 samples.

Results

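The thymocyte and antigen receptor rearrangement genes are Dntt, Rag1, Rag2, Ptcra, Arpp21, Themis, Satb1 and Tox, 8 genes named for their work in developing lymphocytes. They were chosen with earlier results of these data known. A gene was measured where a probe set of the array carried its symbol and no other. This held for 7 of the 8, each with 1 probe set, among 22180 genes measured in all. Rag1 had no probe set that carried its symbol alone and has no value here.

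The samples came from male mice of 2 genotypes, 12 weeks old, fed a Western type diet, rich in fat and cholesterol, for 4 weeks from the age of 8 weeks. The double-deficient mice (KO in the sample titles) lacked apolipoprotein E together with LTbR, the lymphotoxin beta receptor, and their ApoE-deficient littermates (WT in the titles) lacked apolipoprotein E alone, so both groups carried the defect that raises plasma cholesterol and none was a plain wild type. Aorta with its perivascular fat was sampled in 4 double-deficient and 4 ApoE-deficient samples. CD115+ cells, which carry the receptor for macrophage colony-stimulating factor and are mostly monocytes in blood, were pulled from peripheral blood with magnetic beads, in 3 double-deficient and 3 ApoE-deficient preparations. ApoE-deficient CD115+ replicates 3 and 4 were each made from a pool of 2 littermate samples. The labels do not give the deleted cells or promoter of the LTbR allele, nor whether the same mice gave both tissues.

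Thymocytes and B cell progenitors build their antigen receptor genes by cutting and rejoining gene segments. The RAG1 and RAG2 proteins form the recombinase that makes the cut, and terminal deoxynucleotidyl transferase, the product of Dntt, adds untemplated bases at the joints. Ptcra encodes the pre-T alpha chain, which pairs with a newly made T cell receptor beta chain and signals that rearrangement succeeded. Themis and Tox act in the selection of thymocytes that carry both CD4 and CD8, Satb1 organises chromatin in them, and Arpp21 encodes a phosphoprotein with a thymocyte form. Themis, Satb1 and Tox are also used by mature T cells, while Dntt, Rag2 and Ptcra are best known from immature lymphocytes, though not proof of them.

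The 250 bases before the annotated start of 4 members are shown, because Dntt and Themis differed most between the aortas whereas Rag2 and Ptcra, also used in immature T cells, differed little. Whether Rag2 and Ptcra were expressed in aorta is not known, since no detection call was used. The sequences are RefSeq's, build GRCm38.p6, at chr19:41029025-41029274 on the plus strand for Dntt, chr10:28668110-28668359 on the plus strand for Themis (the first of its annotated starts), chr2:101624462-101624711 on the plus strand for Rag2 and chr17:46763713-46763962 on the minus strand for Ptcra. Capitals mark E-boxes (CANNTG, the same on both strands), the motif that E proteins such as E2A and HEB bind in lymphocyte progenitors.
Dntt: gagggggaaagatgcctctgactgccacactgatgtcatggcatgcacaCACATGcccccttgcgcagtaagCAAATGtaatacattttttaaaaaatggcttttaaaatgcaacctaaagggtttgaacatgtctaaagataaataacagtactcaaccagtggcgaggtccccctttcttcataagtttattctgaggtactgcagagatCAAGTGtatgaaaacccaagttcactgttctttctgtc
Themis: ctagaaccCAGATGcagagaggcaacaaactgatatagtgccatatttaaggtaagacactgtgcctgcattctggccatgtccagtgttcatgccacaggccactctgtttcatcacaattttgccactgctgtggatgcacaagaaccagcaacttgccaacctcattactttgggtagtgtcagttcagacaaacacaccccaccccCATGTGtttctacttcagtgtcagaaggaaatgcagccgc
Rag2: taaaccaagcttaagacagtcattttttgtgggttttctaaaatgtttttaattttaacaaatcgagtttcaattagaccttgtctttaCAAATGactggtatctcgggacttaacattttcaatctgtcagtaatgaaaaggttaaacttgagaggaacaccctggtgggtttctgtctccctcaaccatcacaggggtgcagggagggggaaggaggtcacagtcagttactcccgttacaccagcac
Ptcra: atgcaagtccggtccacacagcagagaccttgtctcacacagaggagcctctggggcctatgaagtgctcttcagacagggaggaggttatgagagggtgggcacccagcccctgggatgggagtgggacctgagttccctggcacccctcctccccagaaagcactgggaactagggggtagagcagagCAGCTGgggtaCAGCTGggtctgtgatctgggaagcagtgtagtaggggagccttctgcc

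Dntt held 3 E-boxes in this window, which begin 201, 178 and 38 bases before the start, and Themis held 2, beginning 242 and 40 bases before it. Rag2 held 1, at 161 bases, and Ptcra held 2, at 60 and 49 bases, both with the letters CAGCTG. Of 32851 RefSeq windows of this length 66.2% held at least 1 E-box, 12.2% held 3 or more and 13% held the form CAGCTG, which is itself an E-box. The motif TGGGAA, bound by Ikaros, was searched on both strands, was found in the Ptcra window and not in the other 3 windows shown, and was in 21.6% of all windows. The motif TGTGGT, bound by RUNX factors, was searched on both strands, was in none of the 4 windows and in 14% of all windows.

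Values are on a log2 scale on which the middle of a tissue's arrays is 0 for every probe set, so levels of different genes or tissues cannot be compared. A difference is the double-deficient mean minus the ApoE-deficient mean, with the standard error (SE) of the limma fit. A gene was called where its Benjamini-Hochberg adjusted p over all 22180 genes was under 0.05. The rounding of the deposited values gave a coarse bound on level. All 7 members had at least 1 array below a log2 signal of 8 in each tissue, as did 87.0% of probe sets in aorta and 86.2% in CD115+ cells. By the same bound all arrays lay at or above 8 for 9 of 9 genes of aortic smooth muscle, endothelium and fat in aorta, and for 6 of the 9 monocyte genes that could be resolved in CD115+ cells. For 3 more, among them Csf1r, the gene of CD115 itself, the bound was not resolved. In CD115+ cells 8 of the 9 aortic and fat genes were also at or above 8. The part of this signal in the CD115+ results was not tested.

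The first comparison asked how loss of the lymphotoxin beta receptor changed these genes in the aorta. The receptor's own gene Ltbr, the check of the labels, stood at -0.98, -1.10, -1.29 and -0.49 in double-deficient aortas, against 0.63, 0.49, 0.70 and 0.89 in ApoE-deficient aortas. All 7 members had a negative difference, with a median of -0.39, where the median over all genes was 0.01 and 47.2% of genes were negative. For 4 of them, Dntt, Themis, Satb1 and Arpp21, every double-deficient array lay below every ApoE-deficient array, which held for 2.11% of all genes. The same 4 had an unadjusted p under 0.05 in the lower direction, against 3.81% of all genes. Because the members were chosen with earlier results of these data known, these shares are a description and not an independent test. With adjustment over all genes 0 of the 7 were called by limma, and 0.00451% of all genes were, a single gene outside the members. The p-values measure the spread between samples, which may in part be technical.

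Dntt, which encodes the transferase, showed the largest difference of the 7. Its values were -0.82, -0.24, -2.14 and -2.10 in double-deficient aortas, against 0.35, 0.42, 0.24 and 0.56 in ApoE-deficient aortas. The groups did not overlap, and double-deficient replicates 3 and 4 lay far below replicates 1 and 2. Dntt averaged -1.33 ± 0.95 over the double-deficient aortas and 0.39 ± 0.13 over the ApoE-deficient aortas (SD, n = 4 each). That is a signal 3.29-fold lower in double-deficient aortas (log2 difference -1.72, SE 0.42, adjusted p = 0.461, limma). An exact two-sided permutation test of Dntt alone had p = 0.02857, as low as 4 against 4 samples can go.

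Rag2, the partner of Rag1 in the recombinase, had a difference near 0. Its values were 0.10, 0.32, 0.00 and -0.11 in double-deficient aortas, against -0.24, 0.00, 0.66 and 0.00 in ApoE-deficient aortas. The groups overlapped, with the highest value in ApoE-deficient replicate 3. The difference was -0.03 (SE 0.19, 95% interval -0.48 to 0.42, adjusted p = 0.99, limma). It was 0.16 without ApoE-deficient replicate 3. Without a detection call, a difference near 0 in aorta, here or for Ptcra and Tox below, cannot be told from lack of expression.

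Ptcra, the pre-T alpha chain gene, stood at -0.10, 0.19, -0.03 and -0.28 in double-deficient aortas, against -0.30, 0.05, 0.44 and 0.03 in ApoE-deficient aortas. The groups overlapped across most of their range. Its difference was -0.11 (SE 0.16, 95% interval -0.49 to 0.27, adjusted p = 0.924, limma), and 0.02 without ApoE-deficient replicate 3. Ptcra and Rag2 were both highest in that replicate and both lowest among ApoE-deficient arrays in replicate 1. Over the 8 aorta arrays their values had a Pearson r of 0.93, given as a description of arrays that share their processing.

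Themis, a signalling protein needed for the selection of thymocytes, stood at -0.04, -0.74, -0.82 and -1.16 in double-deficient aortas, against 0.92, 0.04, 0.13 and 0.37 in ApoE-deficient aortas. The groups did not overlap, but double-deficient replicate 1 at -0.04 and ApoE-deficient replicate 2 at 0.04 nearly met. The difference was -1.06 (SE 0.27, adjusted p = 0.461, limma), a signal 2.08-fold lower in double-deficient aortas, with an exact permutation p of 0.02857.

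Satb1, the chromatin organiser, stood at -0.29, -0.09, -0.94 and -1.48 in double-deficient aortas, against 0.38, 0.09, 0.19 and 0.16 in ApoE-deficient aortas. The groups did not overlap, and as for Dntt double-deficient replicates 3 and 4 were the lowest. The difference was -0.91 (SE 0.29, adjusted p = 0.533, limma), a signal 1.87-fold lower, with an exact permutation p of 0.02857.

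Arpp21 had a smaller difference with little spread. It stood at -0.04, -0.21, -0.35 and -0.28 in double-deficient aortas, against 0.36, 0.12, 0.16 and 0.04 in ApoE-deficient aortas, and the groups did not overlap. The difference was -0.39 (SE 0.10, adjusted p = 0.461, limma), a signal 1.31-fold lower, with an exact permutation p of 0.02857.

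Tox, a nuclear factor needed for the helper T cell lineage, stood at 0.16, 0.13, -0.20 and -0.13 in double-deficient aortas, against 0.61, 0.15, -0.13 and -0.25 in ApoE-deficient aortas. The groups overlapped. Its difference was -0.11 (SE 0.19, 95% interval -0.55 to 0.33, adjusted p = 0.935, limma), and 0.06 without ApoE-deficient replicate 1, the highest array.

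**Figure D1:**
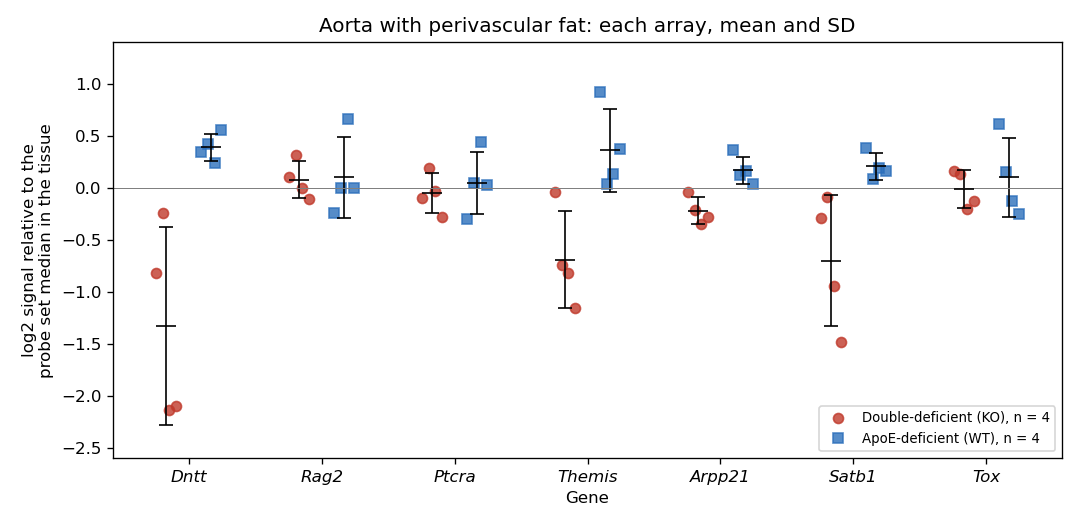
Log2 signal of the 7 measured genes in each aorta array relative to the probe set median, with double-deficient arrays as circles and ApoE-deficient arrays as squares, and the mean and SD of each group (n = 4 each) as black bars. The groups do not overlap for Dntt, Themis, Satb1 and Arpp21 and overlap for Rag2, Ptcra and Tox.

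Over the 8 aorta arrays, Dntt and Satb1 had a Pearson r of 0.95, Themis and Arpp21 of 0.94, and Dntt and Themis of 0.81. Dntt and Rag2 had an r of 0.22. These values are a description. The arrays share their processing, and r over both genotypes carries the genotype difference. By the same measure the genes most like Dntt included the homeobox gene Hhex (r = 0.967), the ribosomal protein gene Rps4x (0.963), the T cell co-stimulator Cd28 (0.957) and the ribosomal protein gene Rpl8 (0.956), and 39 of 22179 genes reached 0.9. For Rag2 they were Kifc3 (0.977), Rnf227, Fxyd6, Pnmal2 and Rgcc (0.961), with 53 genes at 0.9 or more. For Ptcra they were Defa26 (0.953), Klhl11, Dcakd, Mcpt2 and Acp2 (0.932), with 24 genes at 0.9 or more. None of these 10 genes was in a lymphocyte list used here, and their own differences in aorta ran from -0.26 to 0.03.

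Genes that work beside the members were described by lists chosen with earlier results of these data known. Among 23 measured thymocyte development genes, 21 had a negative difference in aorta (median -0.45). In the lower direction 12 of the 23 had an unadjusted p under 0.05, against 3.81% of all genes. Cd4 and Cd8a, the co-receptors that double-positive thymocytes carry together and mature T cells carry singly, differed by -1.24 (SE 0.18) and -1.86 (SE 0.28). Bcl11b, a factor of T lineage commitment, differed by -0.73 (SE 0.14), and Ccr9, the receptor for a thymic and gut chemokine, by -0.63 (SE 0.13). Over the list, 5 of the 23 genes had double-deficient arrays all below the ApoE-deficient arrays, against 2.11% of all genes. These 5 included the 4 genes just named, which had the smallest p of the list. None was called, with adjusted p of 0.266 for Cd4, 0.286 for Cd8a and 0.379 for both Bcl11b and Ccr9 (limma).

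The enzymes that rejoin the cut ends had no common direction. Of 12 measured end-joining genes 3 had a negative and 9 a positive difference in aorta (median 0.05). In the higher direction 0 had an unadjusted p under 0.05, and in the lower direction 2, against 3.81% of all genes. These were Polm, a polymerase of the same family as the Dntt product, at -0.30 (SE 0.10, adjusted p = 0.533, limma) and Hmgb2, a DNA-bending protein that assists the recombinase and is also abundant in dividing cells, at -1.04 (SE 0.34, adjusted p = 0.538, limma). Lig4, the ligase that seals the joint, stood at 0.16 (SE 0.08) and the damage kinase gene Atm at -0.34 (SE 0.18). Of 7 measured sequence relatives of the members, 4 had a negative and 3 a positive difference (median -0.12). In the lower direction 2 had an unadjusted p under 0.05, Polm and Tox4 at -0.47 (SE 0.16), against 3.81% of all genes. Themis2, the relative of Themis used outside the T lineage, stood at -0.50 (SE 0.34) and Tox2 at -0.12 (SE 0.18).

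The lists of B cell progenitors, stem cells and thymic epithelium had medians near 0. Of 12 genes of B cell progenitors, which also use Dntt and the RAG genes, 7 had a negative difference (median -0.04). In the lower direction 2 of the 12 had an unadjusted p under 0.05, against 3.81% of all genes. The 4 genes of smallest p were Irf4 at -0.58 (SE 0.22), Vpreb3 at -0.95 (SE 0.40), Pax5 at -0.74 (SE 0.34) and Erg at 0.39 (SE 0.17). Vpreb1 and Igll1 both stood at -0.04 and Vpreb2 at 0.09. Of 6 progenitor genes 2 were negative (median 0.01), among them the receptor genes Flt3 at -0.22 (SE 0.17) and, on the other side, Kit at 0.09 (SE 0.09), with Meis1 at -0.26 (SE 0.20) and Gata2 at 0.09 (SE 0.28). Of 13 genes of thymic epithelium 8 were negative (median -0.10) and 0 had an unadjusted p under 0.05. Among them Tbata stood at -0.27 (SE 0.12), Psmb11, a proteasome subunit of cortical thymic epithelium, at 0.10 (SE 0.07), and the claudin genes Cldn4 and Cldn3 at 0.20 (SE 0.10) and -0.36 (SE 0.27). The 13 thymic epithelium genes each had at least 1 aorta array below a log2 signal of 8.

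Lists of mature lymphocytes and of lymph node also had negative medians in aorta. Of 13 measured genes of the T cell receptor complex and its signalling, 13 were negative (median -0.76), including Cd3e at -1.90 (SE 0.46), Cd3d at -2.17 (SE 0.54), Cd3g at -2.17 (SE 0.60) and Cd28 at -0.69 (SE 0.20). Of 11 mature B cell genes 11 were negative (median -1.70), with Cd22 at -1.70 (SE 0.41), Cr2 at -2.41 (SE 0.64), Cd79a at -2.21 (SE 0.58) and Tnfrsf13c at -1.15 (SE 0.33). All 5 measured genes of lymph node stroma were negative (median -0.49), led by Glycam1, a ligand made by the venules through which lymphocytes enter lymph nodes, at -4.06 (SE 0.69), with Chst4 at -0.83 (SE 0.23), Madcam1 at -0.49 (SE 0.24) and Fut7 at -0.10 (SE 0.08). In the plasmacytoid dendritic cell list 8 of 9 were negative (median -1.19), with Ly6d, the single gene called in aorta, at -3.54 (SE 0.29, adjusted p = 0.0495, limma), Siglech at -1.19 (SE 0.33), Cd300c at -0.77 (SE 0.25) and Tcf4 at 0.23 (SE 0.08). Natural killer genes were negative in 9 of 9 (median -0.25, Klrd1 -1.89, SE 0.53, Nkg7 -0.91, SE 0.28) and genes of activated and regulatory T cells in 6 of 8 (median -0.13, Il2ra -0.56, SE 0.18, Ctla4 -0.49, SE 0.18). Monocyte genes were negative in 8 of 12 (median -0.10, Treml4 -0.65, SE 0.13, Ly6c2 -1.07, SE 0.39), and genes of the aortic wall and fat in 2 of 9 (median 0.19, Myh11 0.45, SE 0.20). In bulk tissue, fewer cells of a type and less RNA per cell cannot be told apart, and the part these markers have in the members' differences was not tested.

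ApoE-deficient replicate 3 stood apart from its group in several of these lists. The mean over the 7 members was -0.15, -0.09, -0.64 and -0.79 in double-deficient aortas, against 0.30, 0.13, 0.24 and 0.13 in ApoE-deficient aortas, so replicate 3 at 0.24 lay among its group. That mean was carried by Rag2 at 0.66 and Ptcra at 0.44 in replicate 3, while Dntt stood there at 0.24, Satb1 at 0.19, Arpp21 at 0.16, Themis at 0.13 and Tox at -0.13. The T cell receptor list averaged -0.13, -0.10, -0.61 and -0.57 in double-deficient aortas, against 0.99, 1.01, -0.10 and 0.69 in ApoE-deficient aortas, where replicate 3 lay at the upper end of the double-deficient range. The mature B cell list averaged -0.42, -0.35, -0.15 and -0.23 in double-deficient aortas, against 2.20, 2.33, -0.17 and 1.46 in ApoE-deficient aortas, and the lymph node stroma list -0.08, -0.56, -0.45 and -0.78, against 1.07, 0.93, -0.21 and 1.09. Replicate 3 was within the double-deficient range for the mature B cell and lymph node stroma lists. It lay above that range, as for the members, in the thymocyte development list, which averaged -0.13, -0.19, -0.38 and -0.42 in double-deficient aortas, against 0.61, 0.54, 0.05 and 0.24 in ApoE-deficient aortas. In the plasmacytoid dendritic cell list the mean of replicate 3 also lay above the double-deficient range. That list averaged -0.65, -0.41, -0.47 and -0.49 in double-deficient aortas, against 1.11, 1.72, 0.14 and 0.79 in ApoE-deficient aortas. The 0.14 of replicate 3 was carried by Ly6d at 1.38 and Cox6a2 at 1.15. The list's other genes ran there from -0.55 (Irf8) to 0.10 (Klk1). The 1.72 of replicate 2 included Klk1 at 6.99. Thymic epithelium genes averaged 0.01, 0.04, 0.26 and -0.13 in double-deficient aortas, against -0.08, 0.46, 0.05 and -0.01 in ApoE-deficient aortas, and these groups overlapped. The 0.46 of ApoE-deficient replicate 2 was carried by Epcam at 1.55, Krt8 at 1.52, Cldn3 at 1.15 and Krt14 at 1.05. The list's other genes ran there from -0.23 (Cldn4) to 0.55 (Tbata), with Foxn1 at 0.04 and Psmb11 at -0.10. The 0.26 of double-deficient replicate 3 was carried by Epcam at 1.28 and Krt8 at 1.17. Without ApoE-deficient replicate 3 the differences were -1.77 for Dntt, -1.13 for Themis, -0.91 for Satb1 and -0.39 for Arpp21, and 4 of 7 members had an unadjusted p under 0.05 in the lower direction, against 5.16% of all genes in that fit.

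**Figure D2:**
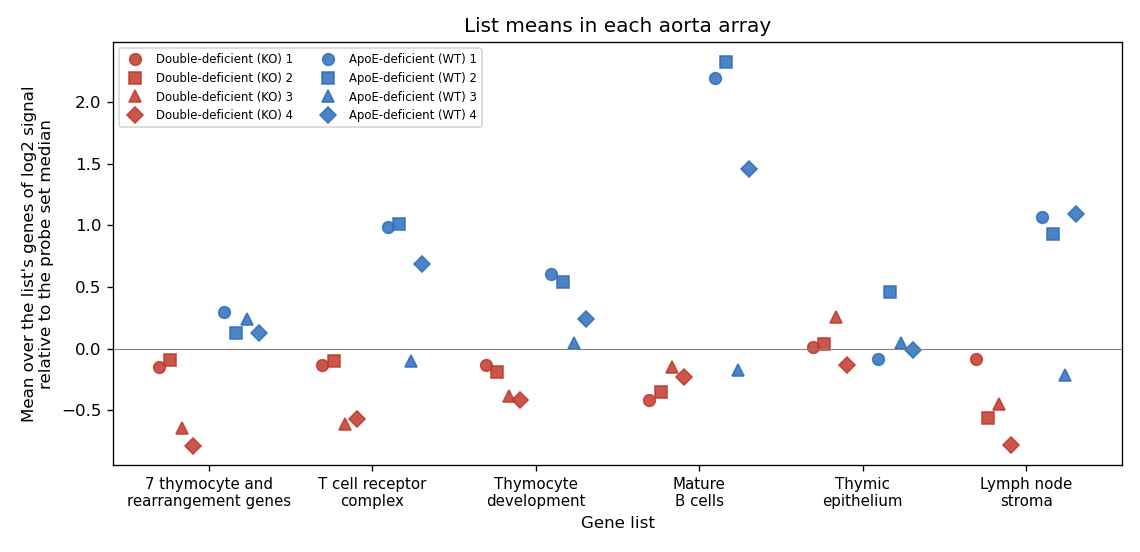
Mean over the genes of each list of the log2 signal relative to the probe set median, in each aorta array; red symbols are double-deficient and blue symbols ApoE-deficient, and the symbol shape gives the replicate. ApoE-deficient replicate 3 (blue triangle) lies at 0.24 for the 7 thymocyte and rearrangement genes and at -0.10 and -0.17 for the T cell receptor and mature B cell lists, far below the other ApoE-deficient arrays in those lists.

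To set each member against T cell signal in the same array, the mean of the 13 T cell receptor genes was subtracted from it. On this scale Dntt stood at -0.69, -0.13, -1.53 and -1.53 in double-deficient aortas, against -0.64, -0.59, 0.34 and -0.13 in ApoE-deficient aortas, and the groups overlapped (difference -0.72, exact permutation p = 0.11429). Themis (-0.05, exact permutation p = 0.85714) and Satb1 (0.10, exact permutation p = 0.74286) were close to the list. The list mean itself differed by -1.0, so a gene with a difference near 0 comes out about that much higher on this scale. The limma fit on this scale called 91.7% of all genes, among them the members Rag2, Ptcra and Tox. Its calls are not used. Arpp21 stood at 0.61 (exact permutation p = 0.08571), Ptcra at 0.89 (exact permutation p = 0.11429), Tox at 0.89 (exact permutation p = 0.02857) and Rag2 at 0.97 (exact permutation p = 0.14286). The shift of the list mean is part of each of these values, so no conclusion is drawn from their p. Against the 3 measured CD3 chains alone, Dntt stood at 0.36 (exact permutation p = 0.51429), the opposite sign, Themis at 1.03 and Satb1 at 1.18. Those chains themselves differed by -1.90 (Cd3e), -2.17 (Cd3d) and -2.17 (Cd3g), which shifts every gene up on this scale. Rag2, with a difference near 0 before the subtraction, stood at 2.05.

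The second comparison asked the same in CD115+ blood cells. Here 0 of the 7 members were called by limma, 0% of all genes were, and 0 of the 7 had an unadjusted p under 0.05, which 4.39% of all genes had. The difference was negative in 2 of the 7, against 55.3% of all genes, and the members' median was 0.07, against -0.01 over all genes. The groups overlapped for all 7 members, while they did not overlap for 5.23% of all genes in the lower and 3.93% in the higher direction. Ltbr stood at -0.07, -0.62 and -0.44 in double-deficient preparations, against 0.55, 0.07 and 0.40 in ApoE-deficient preparations. The smallest exact p that 3 against 3 preparations allow is 0.1.

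The genes of rearrangement itself were nearly flat across these cells. Dntt stood at 0.05, -0.02 and -0.09 in double-deficient preparations, against 0.02, 0.02 and -0.02 in ApoE-deficient preparations, and Rag2 at 0.05, -0.09 and 0.01, against -0.01, 0.01 and -0.08. Dntt, Rag2 and Arpp21 had whole ranges of 0.14, 0.13 and 0.10 over the 6 arrays, where the median range of all genes was 0.30. The differences were -0.03 for Dntt (95% interval -0.16 to 0.11), 0.02 for Rag2 (95% interval -0.12 to 0.16) and -0.02 for Arpp21 (95% interval -0.15 to 0.10). Without a detection call, a gene that did not vary cannot be told from one that was not expressed.

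Ptcra stood at -0.01, 0.00 and 0.02 in double-deficient preparations, against 0.06, -0.42 and 0.00 in ApoE-deficient preparations, so that its difference of 0.13 (SE 0.13) rested on ApoE-deficient replicate 3, 1 of the 2 pools. Without that pool it was -0.02. Themis stood at -0.12, 0.03 and 0.24 in double-deficient preparations, against -0.24, 0.04 and -0.03 in ApoE-deficient preparations (difference 0.13, SE 0.12), and Tox at 0.02, 0.16 and -0.02, against -0.07, 0.09 and -0.06 (difference 0.07, SE 0.07). In both genes the groups overlapped. The Themis difference was 0.03 without double-deficient replicate 3, 0.04 without ApoE-deficient replicate 1 and 0.21 without double-deficient replicate 1, and the Tox difference was 0.01 without double-deficient replicate 2, 0.04 without ApoE-deficient replicate 1 or 4, and 0.12 without ApoE-deficient replicate 3.

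Satb1 varied most of the 7 in these cells. It stood at -0.11, 0.75 and 0.12 in double-deficient preparations, against 0.11, -0.25 and -0.22 in ApoE-deficient preparations (difference 0.37, SE 0.24, 95% interval -0.22 to 0.96, adjusted p = 0.976, limma). Without double-deficient replicate 2, the highest array, the difference was 0.12. Lymphocyte markers varied in the same arrays. The mature B cell list averaged -0.29, 1.76 and 0.99 in double-deficient preparations, against 0.27, -0.82 and -0.84 in ApoE-deficient preparations, and 11 of 11 genes had a positive difference (median 1.44, Blk 1.44, SE 0.46, Pou2af1 1.57, SE 0.54). The T cell receptor list averaged -0.09, 0.52 and 0.33, against 0.04, -0.18 and -0.20, with 11 of 13 genes positive (median 0.37, Lat 0.65, SE 0.22, Cd3g 0.82, SE 0.30). Double-deficient replicate 2 was the highest array for both lists and for Satb1. The part these lymphocyte markers have in the Satb1 values was not tested.

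**Figure D3:**
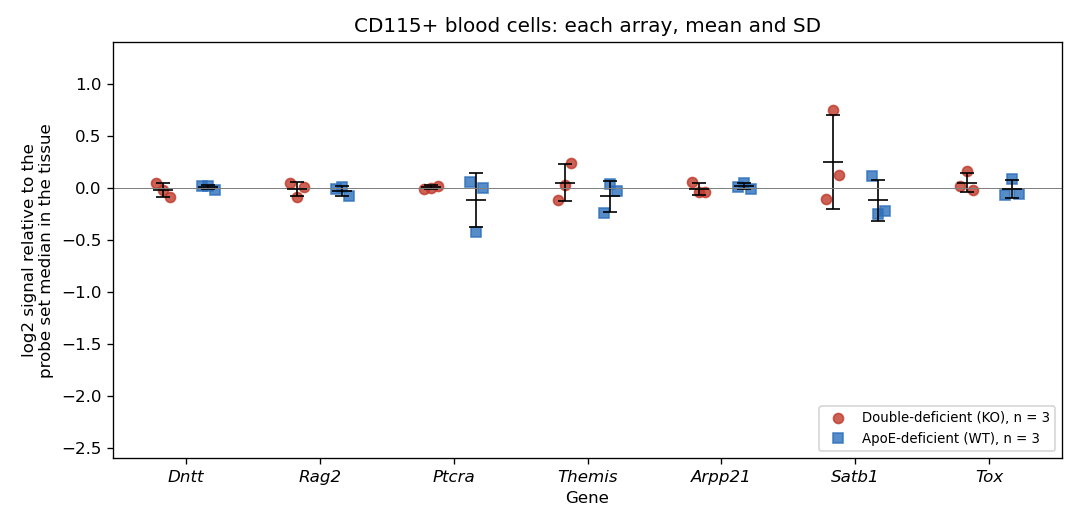
Log2 signal of the 7 measured genes in each CD115+ array relative to the probe set median, on the same scale as the aorta plot, with double-deficient arrays as circles, ApoE-deficient arrays as squares, and the mean and SD of each group (n = 3 each) as black bars. The groups overlap for all 7 genes, and the widest spread is that of Satb1, from -0.25 to 0.75.

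Neighbouring lists in CD115+ cells also held no called gene. Of 23 thymocyte development genes 18 had a positive difference (median 0.09), with Notch1, the receptor that commits progenitors to the T lineage, at 0.34 (SE 0.10), Tcf3, which encodes E2A, at 0.52 (SE 0.18) and Myb at 0.38 (SE 0.14). Of 12 end-joining genes 7 were positive (median 0.05), with Atm at 0.28 (SE 0.07), Nhej1 at 0.29 (SE 0.08) and Poll at -0.19 (SE 0.05). Of 12 B cell progenitor genes 5 were positive (median -0.09), with Bach2 at 1.42 (SE 0.43) and Ebf1 at 0.39 (SE 0.16). Adjusted p was 0.976 for each of these 8 genes (limma).

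The last comparison asked whether the genotype difference itself differed between aorta and CD115+ cells, in 1 fit of all 14 arrays. It gave each gene 1 estimate of the spread for both tissues. The within-group SD was 0.68 in aorta and 0.05 in CD115+ cells for Dntt, and 0.46 and 0.35 for Satb1. In that fit 0 of 7 members and 0% of all genes were called by limma, while 6.90% of all genes had an unadjusted p under 0.05. The 4 members with an unadjusted p under 0.05 were again Dntt, Themis, Satb1 and Arpp21, all lower in aorta relative to CD115+ cells, which 3.49% of all genes were. The aorta difference minus the CD115+ difference was -1.69 for Dntt (SE 0.52, adjusted p = 0.591), -1.27 for Satb1 (SE 0.41, adjusted p = 0.593), -1.18 for Themis (SE 0.35, adjusted p = 0.591) and -0.37 for Arpp21 (SE 0.12, adjusted p = 0.601, limma). It was -0.24 for Ptcra (SE 0.23), -0.17 for Tox (SE 0.24) and -0.05 for Rag2 (SE 0.24), so it was negative in 7 of 7 members, against 45.3% of all genes. For Dntt and Arpp21 nearly the whole of it was the aorta difference, while for Satb1 the CD115+ difference had the opposite sign.

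**Figure D4:**
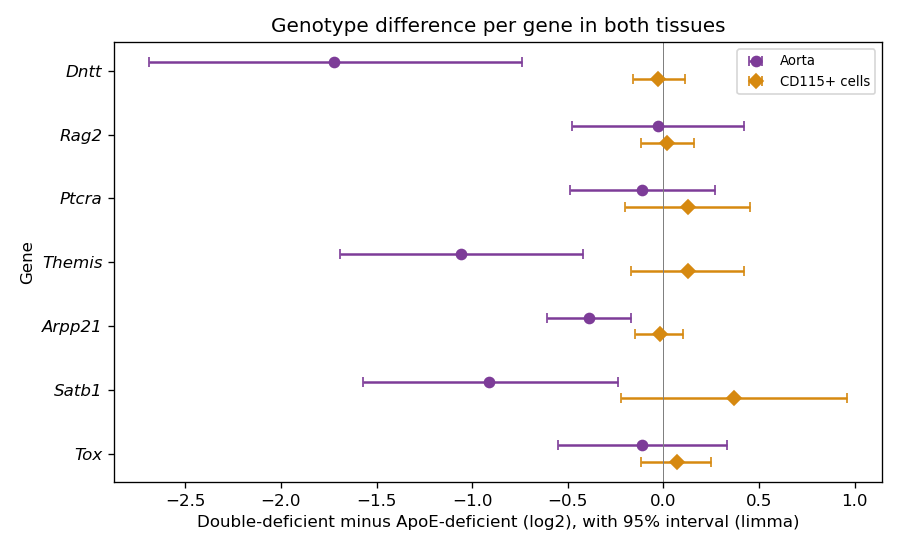
Genotype difference (double-deficient minus ApoE-deficient, log2) of the 7 genes in aorta (circles) and CD115+ cells (diamonds), with the 95% interval of the limma fit, unadjusted. In aorta the intervals of Dntt, Themis, Arpp21 and Satb1 lie below 0, while all 7 intervals in CD115+ cells include 0.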

How the data were processed

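RNA from aorta with perivascular fat (8 arrays) and CD115+ blood cells (6 arrays) was amplified from 1 ng and biotin-labelled (per the labels' protocols). What the authors deposited for the 33793 probe sets are log values, taken here as log2. Their log base, normalization and probe summary are not given in the sources. Every probe set had a median of 0 within 1e-06 over the arrays of each tissue, so the values are centred and levels are lost. The number of arrays limits the precision. No detection call was used.

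The platform annotation gave 1 symbol to 23521 probe sets, several to 1814 and none to 8458; only the first were used and averaged per gene, giving 22180 genes, of which 21994 matched the GRCm38.p6 gene table, used for names. Promoter sequences are RefSeq's. Each tissue had its own fit of all genes (limma 3.58.1, R 4.3.3; lmFit, eBayes, Benjamini-Hochberg, threshold 0.05), and the difference between tissues in 1 fit of the 4 group means. Single genes had an exact two-sided permutation test, not adjusted for the number of members. The fits were tested on simulated data with known changes.

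A coarse level came from rounding. Single-precision numbers have a coarser step at log2 signals of 8 and above, and a probe set counted as at or above 8 where the differences between its arrays kept that step. The step was not resolved for 10 probe sets in aorta and 1420 in CD115+ cells.

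The members and lists were chosen with earlier results of these data known. Named genes were the members, the up to 4 genes (aorta) or 3 genes (CD115+ cells) of smallest p per list, and the 5 genes of highest Pearson r with Dntt, Rag2 and Ptcra, gene models without a proper name, small RNA, olfactory, vomeronasal and taste receptor genes and pseudogenes excepted. A few listed genes were left unnamed for space, and 1 of the 5 genes most like Dntt is not reported here. Alternatives were robust eBayes, array weights, the probe set of largest SD, array median and quantile scaling, a filter on SD, a replicate block, 1 fit of all arrays, and leaving out each array or both pools.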

Additional observations from a re-analysis of the deposited data

How the results depend on the processing

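In aorta 1 gene, Ly6d, was called. The count was 0 with robust eBayes, array weights or the probe set of largest SD, 7 among genes of SD above the median, 19 in 1 fit of all arrays, and from 0 to 74 when 1 array was left out, the highest without ApoE-deficient replicate 3. The count of 0 in CD115+ cells became 2 with the SD filter, and that of the difference between tissues became 1 with the SD filter and ran from 0 to 58 without 1 array, with 30 without ApoE-deficient aorta replicate 3 and 58 without double-deficient CD115+ replicate 1. No member was called in any of these fits of aorta, of CD115+ cells or of the difference between tissues. In aorta 4 of 7 members had an unadjusted p under 0.05 in each fit except that with the SD filter, where it was 3. Of all genes tested 4.85% passed so in the SD-filtered fit, and from 3.03% to 5.16% in the others. The differences ran from -2.08 to -1.45 for Dntt, -1.27 to -0.87 for Themis, -1.11 to -0.65 for Satb1 and -0.45 to -0.33 for Arpp21 without 1 array. Small differences changed sign. Without 1 array they ran from -0.14 to 0.16 for Rag2, -0.23 to 0.02 for Ptcra and -0.22 to 0.06 for Tox in aorta, from -0.06 to 0.01 for Dntt, -0.01 to 0.06 for Rag2 and -0.02 to 0.22 for Ptcra in CD115+ cells, and from -0.16 to 0.14 for Rag2 between tissues. Without both pools, where the lone ApoE-deficient preparation is assumed to vary like the other group, Rag2 and Ptcra in CD115+ cells were at 0.00 and -0.05. The cause of these changes was not tested beyond the arrays left out. Replicate numbers are shared between genotypes, but same-numbered samples did not deviate together (r of 0.166, -0.146, -0.14 and 0.0637 in aorta, -0.469 and -0.292 in CD115+ cells). With a replicate block 1 gene was called in aorta and 0 in CD115+ cells, and Tox in CD115+ cells was at -0.01.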
